A study of Rattus norvegicus with 6 samples.

Results

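Amino acid transporters of the Slc1, Slc3, Slc6, Slc7, Slc36, Slc38 and Slc43 families were followed in NRK-52E cells, an established epithelial line from rat kidney, after streptozotocin (STZ), a nitrosourea joined to glucosamine that alkylates DNA. The members were the rows of the count table whose gene symbol begins with the name of one of these families and a number, with Slc7a11 left out. The rule found 47 rows of 18930, and 46 of them carry the symbol of a transporter. The remaining row, Slc7a6os, is a neighbouring gene named after Slc7a6 and is given apart. The compared groups were wild-type cells without STZ (Control, 3 samples) and wild-type cells exposed to 10 mM STZ for 24 h (3 samples). The study states that the cells without STZ received vehicle, and its methods name dimethyl sulfoxide as the solvent. RNA was sequenced from poly(A)-selected stranded libraries. The sources used here do not say whether the samples of a group were separate cultures, so every p-value measures the spread between these samples. That spread was small, with a biological coefficient of variation of 3.25% in edgeR's fit. Small changes can therefore pass the test, and whether they recur in separate cultures was not tested.

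Cells cannot make all amino acids and take them up through membrane carriers, many of which swap an amino acid for another or use the sodium or proton gradient. Most light subunits of the Slc7 family reach the membrane only when joined to a heavy subunit, Slc3a1 or Slc3a2. In the proximal tubule of the kidney such carriers recover amino acids from the filtrate, and faults in Slc3a1 or Slc7a9 cause cystinuria. When amino acids run short, the kinase GCN2 and the transcription factor ATF4 raise several of these carriers, and the kinase complex mTORC1 reads amino acids at the lysosome.

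Total counts lay between 10430924 and 15191349 per sample, and the median was higher in STZ than in Control libraries. Counts were normalized by edgeR's TMM method and are given per 12447173 reads, the mean scaled library, so that a normalized count is close to a read count. The labelled kidney epithelium was checked against markers. Of 6 epithelial markers, only Krt8, a keratin of simple epithelia, was abundant, with 13718 to 14660.1 normalized counts in Control and 19873 to 20073 in STZ (log2 fold change 0.48). Its partner Krt18 and the claudin Cldn4 had no more than 4 reads, and the epithelial cadherin Cdh1 at most 35, with a log2 fold change of -0.69 (adjusted p = 0.03 by edgeR's quasi-likelihood test), a call lost by DESeq2's Wald test and when Control replicate 1 or 3 or STZ replicate 1 or 3 was left out. No row carried the symbol Epcam or Krt19, so these could not be followed. Only uniquely mapped reads were counted, and whether low rows such as Krt18 lost reads in mapping was not tested. Lrp2, Cubn, Slc34a1, Slc5a2, Slc2a2 and Havcr1, which mark the proximal tubule or its injury, did not exceed 10 reads in a sample. Of 6 endothelial and leukocyte markers, none had more than 29 reads, and their summed normalized counts were 14.7 to 29.3 in Control and 33.2 to 35.3 in STZ. The 7 fibroblast and mesenchymal markers summed to 24948 to 27451 in Control and 23564 to 23976 in STZ, nearly all from Vim, with Col1a2, Pdgfra and Thy1 at no more than 4 reads. All 4 tested markers of this list were lower by edgeR's quasi-likelihood test, against 25.1% of all genes tested. They were Vim (log2 fold change -0.12), Col1a1 (-0.27), Pdgfrb (-0.33) and Col3a1 (-1.35). Col3a1 fell from 671 ± 80.9 normalized counts in Control to 265 ± 28.8 in STZ (SD, n = 3 each). With 1 sample left out, 2 to 4 of these markers were called lower. Aqp1, a water channel of the proximal tubule, had 109.7 to 189 normalized counts in Control and 58.1 to 73.3 in STZ (log2 fold change -1.25, adjusted p = 9.4e-09 by the same edgeR test). Of 9 proximal tubule markers sought, 7 had a row. These summed to 123 to 208 in Control and 71.4 to 85.0 in STZ, mostly from Aqp1. The part of these marker shifts in the transporter results was not tested, and few defining transcripts of the tubule were detected.

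Promoters of members are shown where the ATF4 motif was found, beside that of Slc7a9, the member with the largest change. The motif searched was TGATGNAA, or TTNCATCA on the other strand, the core of the element bound by C/EBP and ATF factors. RefSeq gave promoters of 34 of the 46 transporters, in 38 windows of 300 bases from 250 before to 50 after the start (build GRCr8, which is not the build the reads were mapped to). The motif stood in 3 of the 38 windows (7.89%) and in 1332 of all 33469 windows (3.98%). Windows of 1 gene can overlap. The sequences are written 5′ to 3′ on the strand of the gene, with the motif in capitals.

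Slc1a4 (chr14:98761513-98761812, minus strand): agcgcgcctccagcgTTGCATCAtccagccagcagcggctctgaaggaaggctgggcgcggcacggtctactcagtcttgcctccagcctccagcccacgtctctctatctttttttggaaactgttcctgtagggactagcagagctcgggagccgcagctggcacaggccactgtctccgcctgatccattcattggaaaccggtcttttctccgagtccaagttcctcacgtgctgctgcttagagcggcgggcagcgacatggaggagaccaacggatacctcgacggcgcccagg

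Slc38a1 (chr7:129681352-129681651, minus strand): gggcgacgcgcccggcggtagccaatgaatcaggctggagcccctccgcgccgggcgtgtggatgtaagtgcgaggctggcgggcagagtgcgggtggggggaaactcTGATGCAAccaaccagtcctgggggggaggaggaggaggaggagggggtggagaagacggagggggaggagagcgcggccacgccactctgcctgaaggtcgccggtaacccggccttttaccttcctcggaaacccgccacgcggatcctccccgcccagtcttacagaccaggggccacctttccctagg

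Slc7a1 (chr12:11664238-11664537, plus strand): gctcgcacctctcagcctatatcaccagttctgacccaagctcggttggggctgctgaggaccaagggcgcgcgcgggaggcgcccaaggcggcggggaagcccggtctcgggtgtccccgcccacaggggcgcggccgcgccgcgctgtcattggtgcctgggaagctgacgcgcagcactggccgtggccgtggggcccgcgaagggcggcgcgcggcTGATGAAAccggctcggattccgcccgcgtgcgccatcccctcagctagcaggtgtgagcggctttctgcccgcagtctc

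Slc7a9 (chr1:97246632-97246931, plus strand): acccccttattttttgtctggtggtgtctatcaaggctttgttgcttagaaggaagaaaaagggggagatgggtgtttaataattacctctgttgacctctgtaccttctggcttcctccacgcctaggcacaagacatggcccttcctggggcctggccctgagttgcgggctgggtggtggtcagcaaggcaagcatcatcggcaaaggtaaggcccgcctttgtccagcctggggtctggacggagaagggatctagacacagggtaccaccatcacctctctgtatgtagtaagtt

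Of the 46 transporters, 25 had enough reads to be tested and 21 had not. Among the 25, 10 were higher and 6 were lower in STZ with an adjusted p-value under 0.05 by edgeR's quasi-likelihood test, and 9 did not pass. The higher members made up 40% of those tested, against 25.9% of all 11870 genes tested, and the lower members 24%, against 25.1%. The share of lower members was therefore near that of all genes. The median log2 fold change of the 25 was 0.12, against -0.01 over all genes, and single members ranged from -0.47 to 1.97. Most changes were small, with 13 of the 16 members past the threshold under 0.5 on the log2 scale. Slc7a9 alone also passed an absolute log2 fold change of 1, which 2.26% of all genes passed upwards and 1.11% downwards. In bulk RNA, fewer cells of a type and less RNA per cell cannot be told apart.

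**Figure D1:**
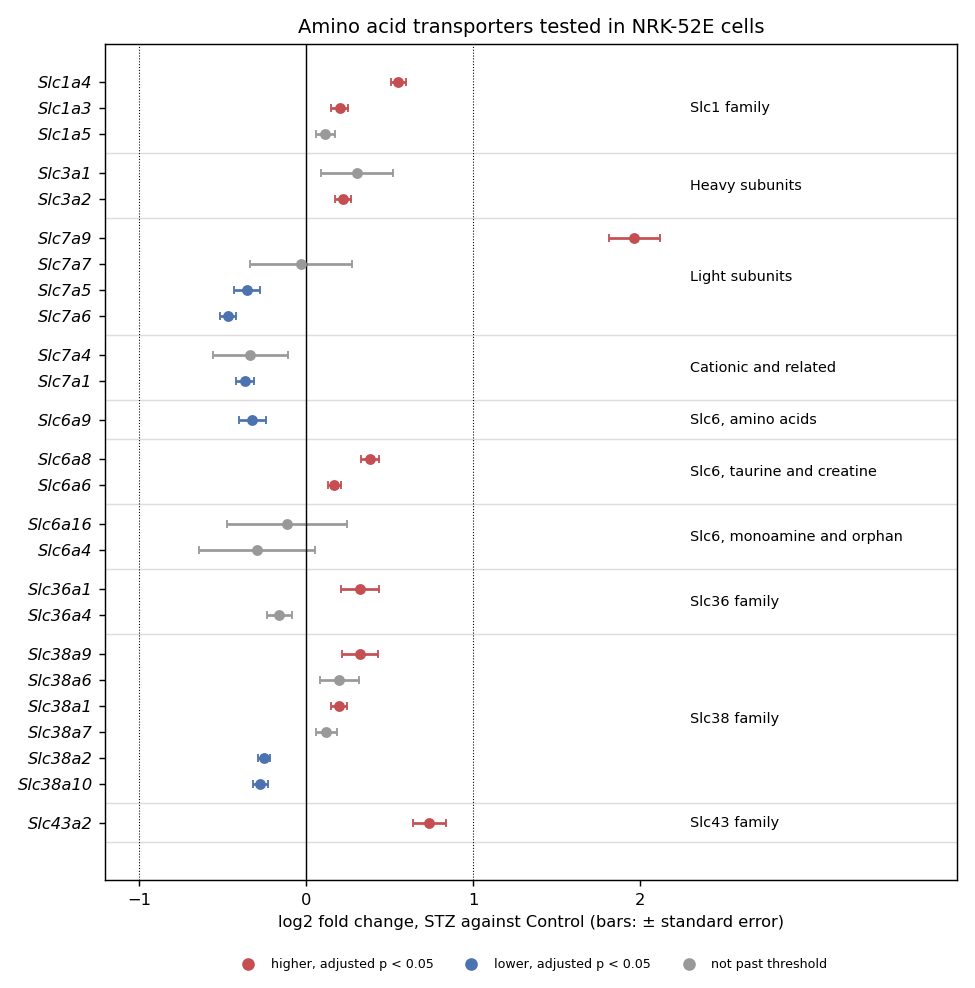
Log2 fold change of each of the 25 tested transporters, STZ against Control, with bars of 1 standard error, grouped by family or role on the y axis; dotted lines mark -1 and 1. Slc7a9 at 1.97 stands alone beyond the dotted lines, and both directions occur among the light subunits and in the Slc38 family.

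The light subunits moved in opposite directions. Slc7a9, which carries cystine and the basic amino acids across the apical membrane of the tubule, had 34.0, 52.1 and 34.9 normalized counts in the Control samples and 163, 152 and 156 in the STZ samples, in the order of replicates 1, 2 and 3 used for every gene. All STZ samples lay far above all Control samples. Its mean was 40.3 ± 10.2 in Control and 157 ± 5.26 in STZ (SD, n = 3 each), a 3.91-fold difference (log2 fold change 1.97, standard error or SE 0.15, adjusted p = 2.1e-14 by edgeR's quasi-likelihood test). The unscaled reads numbered 29 to 46 in Control samples and 141 to 188 in STZ samples. With each sample left out in turn, the log2 fold change of Slc7a9 stayed between 1.86 and 2.18.

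Slc7a6, an exchanger of basic against neutral amino acids, had 1295, 1381 and 1375 normalized counts in Control and 1013, 941 and 975 in STZ. The STZ samples were all below the Control samples, with a log2 fold change of -0.47 (SE 0.05, adjusted p = 6.3e-11 by the same edgeR test). This was the largest fall among the 25 transporters tested. Slc7a5, the main importer of large neutral amino acids such as leucine in dividing cells, had 473, 568 and 616 normalized counts in Control and 428, 496 and 391 in STZ. Here the groups overlapped, since STZ replicate 2 lay above Control replicate 1. Its log2 fold change was -0.35 (SE 0.08, adjusted p = 0.00022 by the same edgeR test), and DESeq2's Wald test gave an adjusted p of 0.058. Slc7a7, the close relative of Slc7a6 in the basolateral membrane of the tubule, had 14.1 to 21.5 normalized counts in Control and 15.1 to 19.9 in STZ, which overlapped. The 4 untested light subunits, Slc7a8, Slc7a10, Slc7a12 and Slc7a15, had at most 4 reads in any sample.

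Slc7a6os, which encodes no transporter, had 562 ± 17.1 normalized counts in Control and 551 ± 37.4 in STZ (SD, n = 3 each; log2 fold change -0.02, adjusted p = 0.79 by the same edgeR test). Its span does not overlap that of Slc7a6 in the GRCr8 annotation. Slc7a6 reads per Slc7a6os read were 2.39 to 2.41 in Control and 1.68 to 1.85 in STZ. The ratio was thus lower in all STZ samples than in any Control sample.

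**Figure D2:**
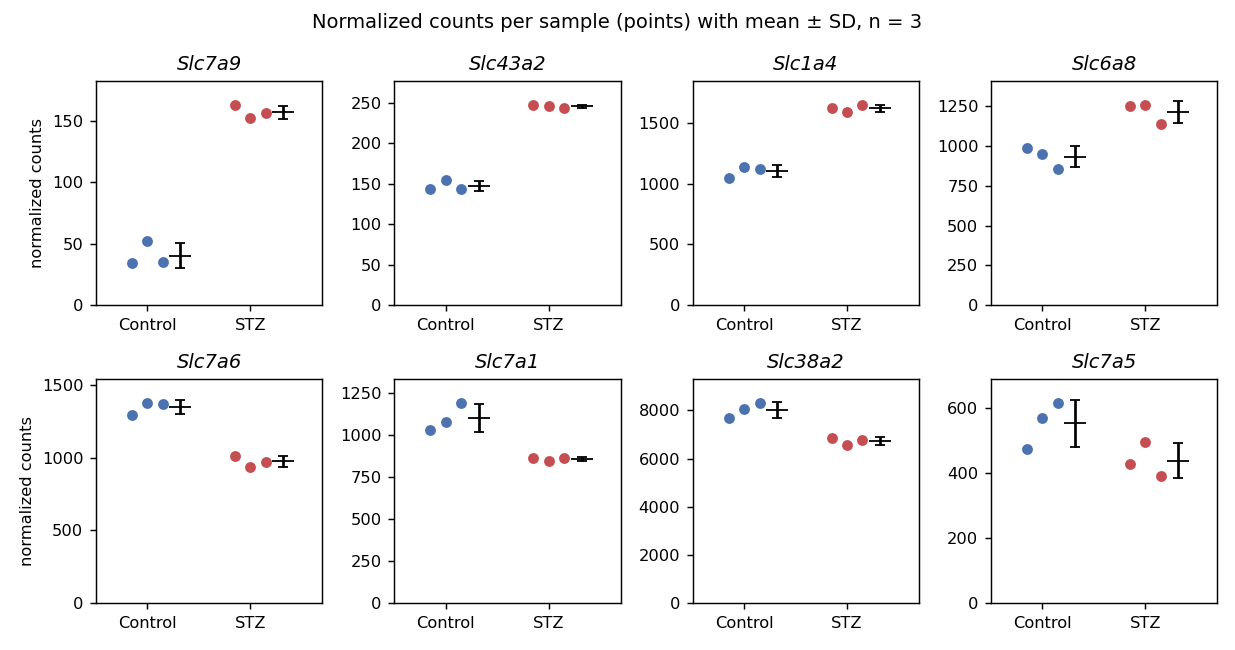
Normalized counts of 8 transporters in each of the 6 samples (points), with the mean and SD of each group beside them and every y axis starting at 0. The groups are apart in Slc7a9, Slc43a2, Slc1a4, Slc6a8, Slc7a6, Slc7a1 and Slc38a2 and overlap in Slc7a5.

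The heavy subunits differed in level. Slc3a2, the partner of Slc7a5, Slc7a6, Slc7a7 and Slc7a8, had 1038, 1072 and 1109 normalized counts in Control and 1235, 1276 and 1245 in STZ. All STZ samples were higher, with a log2 fold change of 0.22 (SE 0.05, adjusted p = 0.00014 by edgeR's quasi-likelihood test). Slc3a1, the partner of Slc7a9, had 35.2, 35.1 and 37.9 normalized counts in Control and 57.9, 33.5 and 41.5 in STZ. Its groups overlapped, and the log2 fold change of 0.31 had a standard error of 0.22 (adjusted p = 0.24 by the same edgeR test). In the GRCr8 annotation Slc3a1 overlaps Prepl, and without knowing whether the counting used strand, their reads cannot be fully told apart.

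Ratios of light to heavy subunit reads within a sample differed between the groups. Slc7a9 had 0.923 to 1.48 reads per Slc3a1 read in Control and 2.81 to 4.55 in STZ. Slc7a5 had 0.455 to 0.556 reads per Slc3a2 read in Control and 0.314 to 0.389 in STZ, and Slc7a6 had 1.24 to 1.29 in Control and 0.737 to 0.821 in STZ. None of these 3 ratios overlapped between the groups, although Slc7a5 counts alone did. The Slc7a6 ratio had to separate, since all STZ samples were below Control for Slc7a6 and above Control for Slc3a2. That of Slc7a9 mostly restates the rise of Slc7a9 itself. How often ratios of other gene pairs separate was not computed, so these ratios are no added result. Counts are not per length, so such a ratio can be compared between samples but not read as molecules of a subunit per molecule of its partner. With 3 samples a group the smallest exact two-sided permutation p is 0.1, so no test of a ratio is given.

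**Figure D3:**
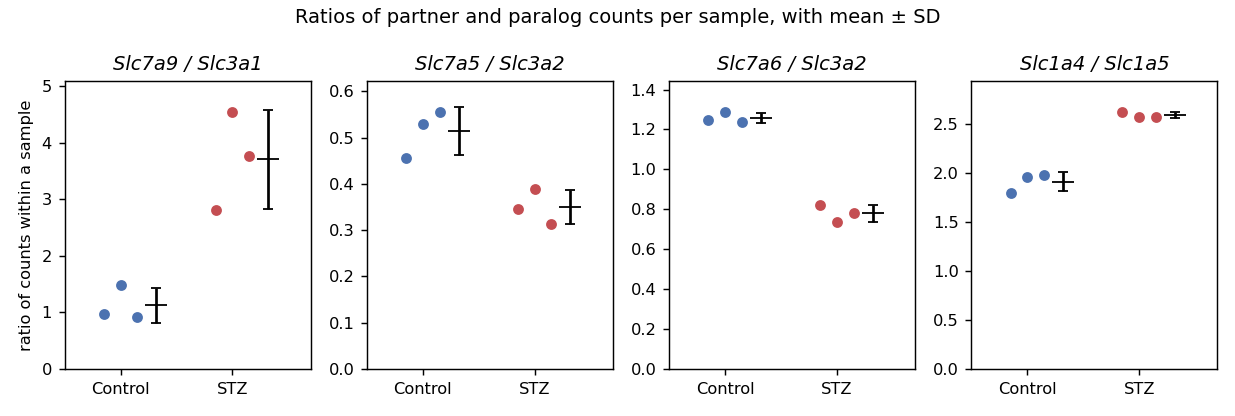
Ratio of read counts of the named genes within each sample (points), with mean and SD by group; y axes start at 0. The STZ samples lie above Control for Slc7a9 to Slc3a1 and Slc1a4 to Slc1a5, and below Control for Slc7a5 to Slc3a2 and Slc7a6 to Slc3a2.

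Of the cationic transporters and their relatives, Slc7a1 fell. Slc7a1 is the broadly expressed importer of arginine and lysine. It had 1030.3, 1076 and 1190.0 normalized counts in Control and 863, 841 and 864 in STZ. The STZ samples were all below Control, with a log2 fold change of -0.36 (SE 0.05, adjusted p = 1.9e-07 by edgeR's quasi-likelihood test). Slc7a4 had 31.1 to 56.3 normalized counts in Control and 28.1 to 41.6 in STZ, and its groups overlapped. Slc7a2 and Slc7a3 had at most 2 reads in any sample. The promoter of Slc7a1 shown above holds the motif 30 bases before the start, and Slc7a1 was among the 6 that fell.

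The tested members of the Slc1 family lay higher in STZ in every sample, and 2 of 3 passed the test. Over all genes tested, 25.9% were called higher and 28.6% had all STZ samples above all Control samples. Slc1a4, which exchanges alanine, serine, cysteine and threonine, had 1046, 1139.8 and 1123 normalized counts in Control and 1620.4, 1589.7 and 1647 in STZ. Its log2 fold change was 0.55 (SE 0.05, adjusted p = 1.8e-13 by edgeR's quasi-likelihood test), and the lowest STZ sample was well above the highest Control sample. Its paralog Slc1a5, the main glutamine exchanger of many dividing cells, had 583, 584 and 569 normalized counts in Control and 619, 619.7 and 641 in STZ. The groups did not overlap, but the log2 fold change of 0.12 (SE 0.06) did not pass the test (adjusted p = 0.092 by the same edgeR test). Slc1a4 reads per Slc1a5 read were 1.79 to 1.97 in Control and 2.57 to 2.62 in STZ. Slc1a3, a sodium-driven importer of glutamate and aspartate, had 928, 994 and 992 normalized counts in Control and 1150.0, 1064 and 1138 in STZ, a log2 fold change of 0.20 (SE 0.05, adjusted p = 0.00072 by the same edgeR test). Slc1a1, the glutamate importer of the tubule's brush border, had at most 1 read in any sample, Slc1a2 at most 2 and Slc1a7 at most 8.

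Slc43a2, which lets branched-chain amino acids and phenylalanine pass without an ion gradient, was the second most raised transporter. It had 143, 154 and 144 normalized counts in Control and 247, 245 and 243 in STZ. The groups were far apart relative to their spread, with means of 147 ± 6.08 and 245 ± 1.84 (SD, n = 3 each), a 1.67-fold difference (log2 fold change 0.74, SE 0.10, adjusted p = 1.8e-08 by edgeR's quasi-likelihood test). Slc43a1, its relative, had at most 1 read in any sample.

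Of the 6 tested members of the sodium-coupled Slc38 family, 2 were higher, 2 lower and 2 did not pass. That is 33.3% in each direction, against 25.9% higher and 25.1% lower over all genes tested. Slc38a2, the importer of small neutral amino acids that cells raise on amino acid starvation, gave the most reads of all members and made up 33.4% to 34.3% of all transporter reads in Control and 28.6% to 29.3% in STZ. It had 7669, 8056 and 8321 normalized counts in Control and 6851, 6563 and 6779 in STZ. All STZ samples were lower, with a log2 fold change of -0.25 (SE 0.04, adjusted p = 1.9e-07 by edgeR's quasi-likelihood test). Slc38a1, a close relative that also imports glutamine, went the other way, with 946, 920.2 and 984 normalized counts in Control and 1076, 1075 and 1119 in STZ (log2 fold change 0.20, SE 0.05, adjusted p = 0.00084 by the same edgeR test). The promoter of Slc38a1 holds the motif, 142 bases before the start, and that of Slc38a2 does not within its window.

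Slc38a10, a less studied family member, fell from 2052, 2024 and 2179 normalized counts in Control to 1777, 1744 and 1664 in STZ (log2 fold change -0.27, SE 0.04, adjusted p = 1.1e-06 by edgeR's quasi-likelihood test). Slc38a9, the arginine sensor on the lysosome that signals to mTORC1, had 124, 157 and 142 normalized counts in Control and 178, 175 and 178 in STZ. The STZ samples were close to each other and above all Control samples, with a log2 fold change of 0.33 (SE 0.11, adjusted p = 0.011 by the same edgeR test). Without Control replicate 1 the adjusted p of Slc38a9 was 0.079 by the same edgeR test. Slc38a7, which exports glutamine and asparagine from the lysosome, had 490.2 to 591 normalized counts in Control and 568 to 584 in STZ. Slc38a6 had 124 to 128 in Control and 132 to 163 in STZ and did not pass (adjusted p = 0.15 by the same edgeR test), and it overlaps Trmt5 in the GRCr8 annotation. The 5 untested members had at most 6 reads in any sample. The highest of these was Slc38a3, the glutamine carrier of the tubule, which had 0 to 1 reads in Control samples and 2 to 6 in STZ samples, too few to be tested.

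The proton-coupled family had 2 tested members. Slc36a1, which moves small amino acids out of the lysosome with protons, had 147, 125 and 122 normalized counts in Control and 159, 161 and 169 in STZ. The STZ samples were all higher, with a log2 fold change of 0.32 (SE 0.11, adjusted p = 0.014 by edgeR's quasi-likelihood test). This call did not hold in every setting, since adjusted p was 0.058 without Control replicate 2, 0.071 without Control replicate 3 and 0.056 without STZ replicate 3 by the same edgeR test, and 0.063 by DESeq2's Wald test. Slc36a4 had 413, 447 and 461 normalized counts in Control and 425, 337 and 416 in STZ, which overlapped, and its log2 fold change of -0.16 did not pass (adjusted p = 0.076 by the same edgeR test). It passed without Control replicate 1 (adjusted p = 0.035) and without STZ replicate 1 (adjusted p = 0.037 by the same edgeR test), where its log2 fold changes were -0.20 and -0.21, whereas it shrank to -0.07 without STZ replicate 2. Slc36a4 overlaps the protein-coding gene LOC134479996 in the GRCr8 annotation. Slc36a2 had at most 3 reads in any sample.

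Among the Slc6 carriers, those of taurine and creatine rose and that of glycine fell. Slc6a8, the creatine carrier, had 986, 953 and 859 normalized counts in Control and 1255, 1259 and 1137 in STZ. All STZ samples were higher, with a log2 fold change of 0.39 (SE 0.05, adjusted p = 6.7e-08 by edgeR's quasi-likelihood test). Slc6a6, the carrier of the osmolyte taurine, had 2911, 2764 and 3007 normalized counts in Control and 3268, 3255 and 3252 in STZ, a smaller difference that likewise did not overlap (log2 fold change 0.17, SE 0.04, adjusted p = 0.00036 by the same edgeR test). Slc6a9, which imports glycine, had 356, 343 and 323 normalized counts in Control and 243, 297 and 278 in STZ. The STZ samples were all lower, with a log2 fold change of -0.32 (SE 0.08, adjusted p = 0.0011 by the same edgeR test), and Slc6a9 overlaps Ccdc24 in the GRCr8 annotation. Slc6a4, the serotonin carrier, and Slc6a16, an orphan that overlaps Cd37, were near the limit of detection, with between 9.14 and 21.1 normalized counts in every sample, and did not pass the test (adjusted p = 0.51 and 0.82 by the same edgeR test). The proline carrier of the brush border Slc6a20, like Slc6a3, Slc6a13, Slc6a14 and Slc6a15, had at most 1 read in any sample.

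Summed over all 46 transporters, reads amounted to 0.188% to 0.196% of each Control library and 0.182% to 0.186% of each STZ library. These ranges did not overlap, but the normalized sum did, with 22979 to 24284 in Control and 22937 to 23441 in STZ. With Slc38a2 left out, the normalized sum was 15310 to 15963 in Control and 16374 to 16590 in STZ. The sum therefore depended on its largest member, which fell while most of the tested members that passed were higher. In 12 of the 25 tested transporters all STZ samples were above all Control samples, and in 5 all were below. Over all genes tested these shares were 28.6% and 27.7%. The 12 were the 10 higher members with Slc1a5 and Slc38a6, and the 5 were the lower members without Slc7a5.

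Genes around the transporters were read from lists of related function. Of 9 further carriers and related genes tested, which include the nucleoside carrier Slc29a3 and Slc12a8 of the cation-chloride family, 3 were called higher by edgeR's quasi-likelihood test, against 25.9% of all genes, and 6 did not pass, with a median log2 fold change of 0.17. Slc17a6, which loads glutamate into vesicles, rose from 26.0 to 30.1 normalized counts in Control to 60.6 to 66.4 in STZ (log2 fold change 1.21, adjusted p = 2.4e-06 by that edgeR test). Slc12a8 had 12.9 to 31.7 in Control and 43.3 to 64.2 in STZ (log2 fold change 1.26), and Slc66a1, which exports basic amino acids from the lysosome, 151 to 168 and 185 to 217 (log2 fold change 0.34). Slc7a11, the cystine importer left out by the rule, reached 17 reads at most and did not pass (adjusted p = 0.51 by that edgeR test).

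Of 29 genes of lysosomal amino acid sensing and mTORC1 tested, 9 were higher, 7 lower and 13 did not pass, with a median log2 fold change of 0.05. These shares can be set beside the 25.9% and 25.1% of all genes. Rragc, a GTPase that recruits mTORC1 to the lysosome, rose from 1482 to 1576 normalized counts in Control to 1876 to 2023 in STZ (log2 fold change 0.35). Lamtor3, a subunit of its lysosomal anchor, also rose (log2 fold change 0.32), while Nprl3, a subunit of the complex that switches the GTPases off, fell from 254 to 297 to 173 to 191 (log2 fold change -0.59).

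Of 14 genes of the GCN2 and ATF4 response tested, 8 were higher, 4 lower and 2 did not pass, with a median log2 fold change of 0.30. Over all genes tested, 25.9% were higher and 25.1% lower. The 3 with the smallest p were Psat1 and Phgdh, enzymes of serine synthesis, which fell (log2 fold changes -0.94 and -0.66), and Ddit4, a brake on mTORC1, which rose (0.76). The other higher genes included the stress-induced transcription factors Atf3 (1.71), Ddit3 (0.84) and Cebpb (0.47), with Chac1, which breaks down glutathione (0.97), and Trib3, an inhibitor of ATF4 (0.39). Besides Psat1 and Phgdh, the lower genes were Eif2ak4, which encodes GCN2 itself (-0.31), and Gcn1 (-0.13). Atf4 itself had 2962 to 3211 normalized counts in Control and 2964 to 3124 in STZ, and the asparagine synthetase Asns had 564 to 599 and 534 to 589.7. Neither passed the test (adjusted p = 0.87 and 0.61 by edgeR's quasi-likelihood test). These 2 genes and the others listed since Ddit4 were named after their values were seen. The transporters with the motif in their promoter, Slc1a4, Slc38a1 and Slc7a1, stood on both sides. Of 6 genes of carrier trafficking, Nedd4, a ubiquitin ligase, fell (log2 fold change -0.15), Sgk1, a kinase that keeps carriers at the membrane, rose (0.32), and 4 did not pass.

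**Figure D4:**
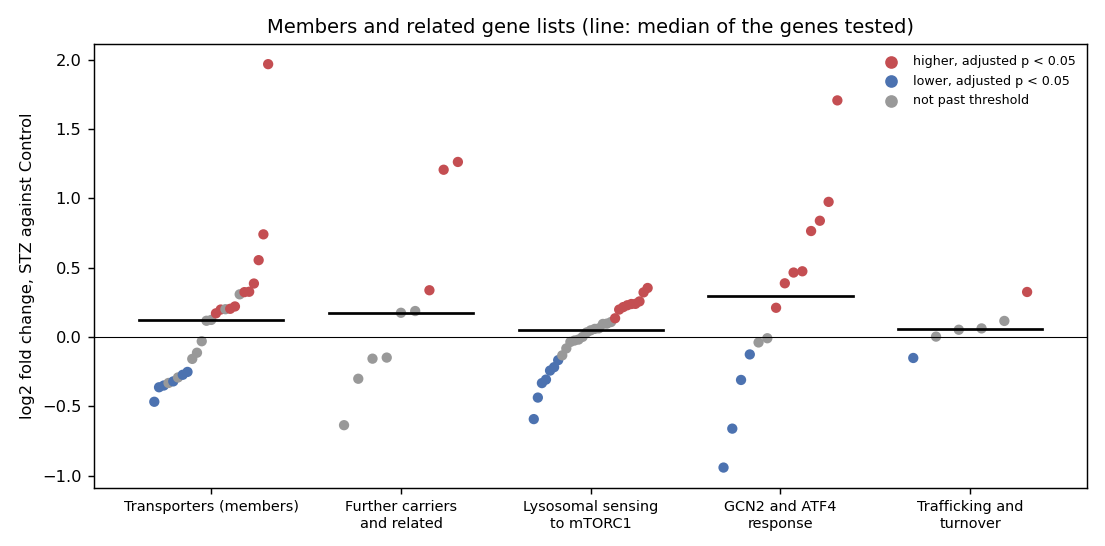
Log2 fold changes, STZ against Control, of the 25 tested transporters and of the tested genes of 4 related lists (points coloured by the test, sorted within a list, with the median as a line). The list medians lie between 0.05 and 0.30, and every list but that of the further carriers holds genes that passed the test in both directions.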

How the data were processed

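RNA of 3 Control and 3 STZ samples was sequenced by the authors as single-end Illumina reads. The authors aligned them to rat build Rnor6 using STAR 2.7.10a, counted uniquely mapped reads with featureCounts, and deposited these raw counts, without normalization, with 1 column per sample. The annotation release and strand setting are not given in the sources used here. Columns were matched to samples by their labels, and each row was tested as deposited.

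Low counts were removed with filterByExpr, which left 11870 of 18930 rows. All 6 samples entered a single edgeR fit (version 4.0.16 under R 4.3.3) with TMM scaling and the quasi-likelihood test. Benjamini-Hochberg adjustment covered every gene tested, and a call required an adjusted p under 0.05. Higher and lower refer to STZ against Control. Standard errors are the absolute log2 fold change over the square root of F. On simulated counts for 11870 genes, 185 of 200 changed genes were recovered and 8 others called. The simulation set a larger spread between samples than the data showed. Its planted changes were all over 0.5 in size on the log2 scale, so these figures hold for that setting only. Many more genes were called in the data, 3070 higher and 2976 lower. Recovery at log2 fold changes under 0.5, where 13 of the 16 transporter calls lie, was therefore not tested. Alternatives used DESeq2 1.42.0, limma 3.58.1, other filters and scalings, a replicate block and samples left out. Transporters named were those past the threshold (up to 20 by size of change), the highest of each group and 7 fixed genes. A further 6 tested members were named outside this rule. From each related list up to 3 genes with the smallest p were named, besides markers, Slc7a11 and the further GCN2 and ATF4 genes stated above. Members and lists were chosen with earlier results of these data known.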

Additional observations from a re-analysis of the deposited data

How the results depend on the processing

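The number of transporters past the adjusted p-value threshold was 10 higher and 6 lower, and stayed within 1.5 times under all alternatives run, at 9 to 10 higher and 5 to 7 lower (9 and 5 by DESeq2's Wald test). With 1 sample left out it was 9 to 10 higher and 6 to 7 lower. Slc7a9 was past both thresholds in every setting, glmTreat against an absolute log2 fold change of 1 included, and no other transporter was. The median log2 fold change of the members, 0.12, was 0.10 to 0.17 with 1 sample left out, highest without Control replicate 1. Over all genes, 400 passed both thresholds, against 249 when every sample had to reach 10 counts, where fewer genes were tested, 112 with glmTreat, which requires the fold change itself to exceed the threshold, 585 with no filter, 565 at 0.5 CPM in 1 sample, and 403 to 462 with 1 sample left out.

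The 19 transporters named by rule were refitted 323 times: 312 outcomes kept direction and side of the threshold, 6 lost the call, 5 gained it and 0 reversed. Those lost were of Slc36a1 (4), Slc7a5 and Slc38a9, and those gained all of Slc36a4. Besides the samples left out, Slc36a4 passed under library size only, the upper quartile and the replicate block. Control and STZ share replicate numbers, but samples of equal number hardly deviated together (correlations of their deviations 0.04, -0.02 and 0.12 over 9989 genes), and 3 of 6 samples correlated best with their own number, so the numbers were not taken as pairs. Under the replicate block, 10 transporters were higher and 7 lower, and the median was 0.13. Of 272 counts of higher or lower genes in the related and marker lists under the alternatives, 259 stayed within 1.5 times. Counts of at most 8 reads left 21 transporters untested, so changes in these were not detectable at this depth.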
